A study of Mus musculus with 14 samples.

Results

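Transcript levels in single mouse embryonic stem cells (ESCs) were compared with those in cells treated with retinoic acid. These were 2 of the 14 samples of a study that otherwise mapped DNA methylation on marked nucleosomes. Both samples came from R1, a male mouse ESC line, at passages 20-23, with no genetic change named in the labels. Before the experiment the cells grew on gelatin in serum medium with LIF and with 2i, the pair of inhibitors PD0325901 (against MEK/ERK) and CHIR99021 (against GSK3). For the ESC sample, 2i was then left out for 2 days. For the RA sample, the cells had 4 days with 1 µM retinoic acid in medium with less serum and with neither LIF nor 2i. The samples therefore differ in retinoic acid, LIF, serum, time in culture and time without 2i, and the part of each cannot be told apart. Only cells with over 10000 unique molecular identifiers (UMIs) entered, which were 425 of 868 deposited ESC barcodes and 435 of 696 RA barcodes.

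LIF and inhibition of the MEK/ERK and GSK3 kinases hold mouse ESCs in a pluripotent state, and cells without them become able to leave it. Retinoic acid is a ligand of nuclear receptors that bind DNA and switch on developmental genes, and in serum it drives ESCs into several lineages at the same time. Single-cell counts show whether a transcript that appears or disappears does so in every cell or in a part of the culture, which the summed level cannot show. In the InDrop method, each cell is caught in a droplet with a bead whose primers carry a cell barcode and a UMI, so that copies of 1 captured molecule can be counted once.

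Each state was 1 sample, so differences between the states have no replicate check and no test was made. A fold change compares these 2 libraries, and the state of the cells, their handling and the library cannot be told apart. The deposited files pair the transcript identifiers with no gene names, and no outside table of names was used. No transcript is therefore given a function, and the labelled cell types were not checked against marker genes. Identifiers are printed for only 4 transcripts. Intervals are exact 95% intervals, Poisson for UMI sums and Clopper-Pearson for shares of cells, and cover counting error only. For a count of 0 a limit of 3 counts is given in their place, which bounds the cells with a UMI and not the cells that express a transcript.

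Over all deposited barcodes the median was 9872.5 UMIs in ESCs and 11242.5 in RA cells, and the filter left out 443 and 261 barcodes. The kept cells were of similar depth in both states and held 6394278 UMIs in ESCs and 6424811 in RA cells, with medians of 12951 and 13596 per cell. The shallowest kept cell had 10003 UMIs in each state, and the deepest barcodes left out had 9975 and 9996. For shares of cells, each kept cell was thinned at random to 10000 UMIs, which left out no kept cell. The states shared 7 barcodes, 2 of them among the kept cells. The number of cells the study names is about that of all deposited barcodes, and not that of the cells its stated filter on UMIs leaves here. Doublets, droplets that held more than 1 cell, were not removed.

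The libraries differed in how counts were spread over cells, and this bears on every share of cells that follows. Among the 1937 transcripts that differed by less than 2-fold between the states and averaged 0.1 to 0.3 UMIs per thinned cell in both, a cell with any UMI of a transcript held 1.99 of them on average in RA cells and 1.47 in ESCs. Such a cell held exactly 1 UMI in 52.9% of cases in RA cells and in 68.6% in ESCs. The median Fano factor of these transcripts, the variance of the counts over cells divided by their mean and near 1 for counts that scatter at random, was 2.67 in RA cells and 1.65 in ESCs. At the same mean level a transcript was therefore seen in fewer RA cells, with a median of 8.74% against 11.5% of ESCs. The difference was present in transcripts whose summed level hardly differed, and its cause was not tested. Where shares of cells are compared, little changed transcripts of the same level in the same library are therefore given beside them.

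Of the 33711 transcripts with a UMI in a kept cell of either state, 17189 had at least 30 UMIs over both states and were compared. Levels are counts of a state's summed UMIs scaled to a common total of 1000000 (CPM), and sums under 3 UMIs were set to 3, which is 0.469 CPM in ESCs and 0.467 CPM in RA cells. More transcripts rose than fell. In RA cells 2342 transcripts were at least 4-fold higher, 13.6% of those compared, and are called gained, and 986 were at least 4-fold lower, 5.74%, and are called lost. The median transcript was higher in RA cells by 0.26 on the log2 scale, and 9297 transcripts (54.1%) stayed within 2-fold. With the median ratio of the transcripts as the scale in place of the totals, 1949 were gained and 1254 lost, so the gained made up 60.8% of the calls in place of 70.4%. At 2-fold, 29.6% of the transcripts were higher and 16.3% lower in RA cells, and at 8-fold 6.99% and 2.73%. The folds next to the limit were 4.00 on both sides for the gained, and 4.01 inside and 3.99 outside it for the lost.

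**Figure D1:**
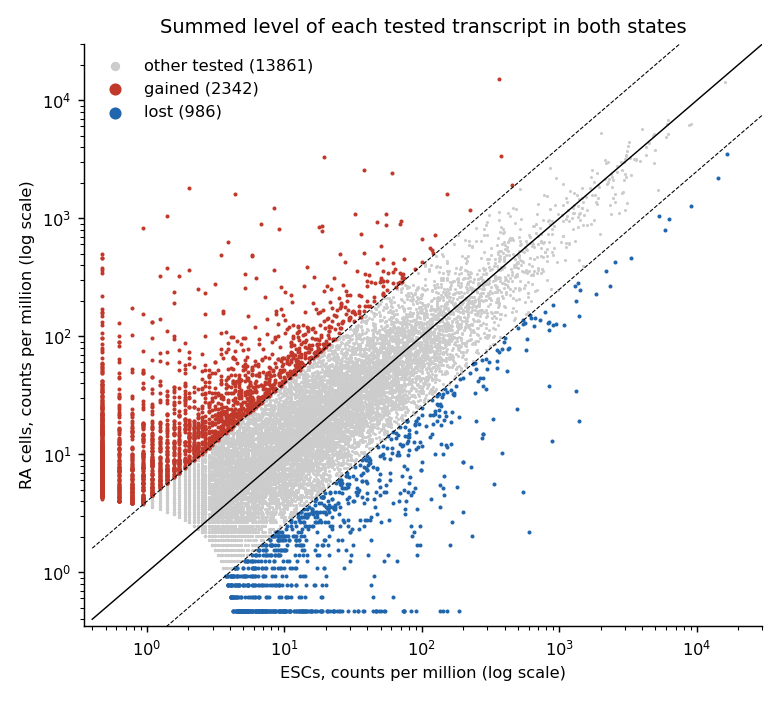
Summed level of the 17189 compared transcripts in ESCs (horizontal axis) and RA cells (vertical axis), both in CPM on log scales with sums under 3 UMIs drawn at 3. The solid line marks equal levels and the dashed lines 4-fold differences, with 2342 gained transcripts above them in red and 986 lost transcripts below them in blue.

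The gained transcripts together held 14.1% of the UMIs of RA cells and 1.32% of those of ESCs. The lost transcripts held 13.2% of the UMIs of ESCs and 2.00% of those of RA cells. The gained list was 2.38 times as long as the lost one. As the shares of a state add up to 100%, a higher share of some transcripts is always met by a lower share of others. Most gained transcripts were of low level: 831 were under 10 CPM in RA cells and 1283 were between 10 and 100 CPM, while the 14 above 1000 CPM held 28.0% of all gained UMIs. The lost list leaned further on abundant transcripts, since its 19 members above 1000 CPM in ESCs held 60.5% of the lost UMIs. The median fold of the 14 abundant gained transcripts was 41.0, and that of the 19 abundant lost transcripts was 6.59.

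A transcript counted as gained or lost outright when it had at least 30 UMIs in one state and at most 3 in the other. This held for 516 transcripts in RA cells, 3.74% of those with 30 UMIs there, and for 236 in ESCs, 1.93% of those with 30 UMIs there. The other state had no UMI at all for 203 of the 516 and 118 of the 236. Most of them were rare, with a median sum of 54 UMIs among the outright gained and 49 among the outright lost. At such sums a level of 0 in the other state is a limit of depth, not a sign of absence.

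The largest folds, with sums under 3 UMIs set to 3, among transcripts with at least 500 UMIs in the higher state, a pool of 297 gained and 175 lost transcripts, are given by 2 transcripts in each direction. The transcript uc007fhi.1 had 0 UMIs in ESCs and 3196 in RA cells (3086 to 3309), or 497 CPM. This is 1060-fold higher with the ESC sum set to 3. It was seen in 260 of 435 thinned RA cells, 59.8% (55.0 to 64.4), or 61.4% without thinning, and in 0 of 425 ESCs, where 3 cells would be a share of 0.706%. The cells that held it had a median of 8 UMIs before thinning, and 1 cell had 89.

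The transcript uc008gqp.2 had 2 UMIs in ESCs, each in a different cell, and 2964 in RA cells (2858 to 3073), which is 983-fold with the ESC sum set to 3. The ratio of the counts themselves was 1475 with a counting interval of 408 to 12185. It was seen in 65.3% of thinned RA cells (60.6 to 69.8), or 68.5% without thinning, against 0.471% of ESCs (0.0570 to 1.69). Both transcripts were thus nearly or wholly unseen in ESCs and missing from more than 30% of the RA cells. Their lowest Pearson correlations with another transcript across the RA cells were -0.335 and -0.302. Whether such a partner bears on their shares of cells was not tested. The median little changed transcript of their level, between 3 and 10 UMIs per thinned cell, was in 80.9% of RA cells, with quartiles of 71.1% and 89.0%. Their Fano factors in RA cells were 9.29 and 9.43 against a median of 3.87 there, so their counts spread over cells far more widely than the Poisson intervals of their sums assume.

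Of the lost transcripts, uc009rvg.1 had 1191 UMIs in ESCs (1124 to 1261), or 186 CPM, and 1 UMI in RA cells, which is 399-fold lower with the RA sum set to 3. The ratio of the counts themselves was 1197 with a counting interval of 214 to 47306. It was seen in 73.2% of thinned ESCs (68.7 to 77.3), or 77.9% without thinning, and in 0.230% of RA cells. The transcript uc009tsd.1 had 976 UMIs in ESCs (916 to 1039), or 153 CPM, and 0 in RA cells, which is 327-fold lower with the RA sum set to 3. It was seen in 56.2% of thinned ESCs (51.4 to 61.0), or 60.9% without thinning, and in 0 of 435 RA cells, where 3 cells would be 0.690%. The median little changed transcript of their level, between 1 and 3 UMIs, was in 60.9% of ESCs, with quartiles of 53.4% and 70.2%. In ESCs the Fano factors of these transcripts were 1.70 and 2.40. Little changed transcripts of their level in the same library had a median of 1.94, with quartiles of 1.70 and 2.34.

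Among the same transcripts with at least 500 UMIs in the higher state, none of the 15 with the largest rise was seen in over 90% of the thinned RA cells. Of little changed transcripts with at least 1 UMI per thinned RA cell, 144 of 994 were. The shares of these 15 ran from 12.2% to 81.6% with a median of 44.4%. None reached over 1.18% of ESCs, which follows from the choice of the largest folds. All 15 had a lower share of RA cells than the median little changed transcript of their level in the same library, and 13 were below its lower quartile. Of the 15 of that pool with the largest fall, 3 were in over 90% of the thinned ESCs, and of little changed transcripts with at least 1 UMI per thinned ESC 229 of 1014 were. The shares of these 15 ran from 38.6% to 100% with a median of 61.9%. Up to 9.43% of RA cells held one of them, a low share that again follows from the choice. Among ESCs 5 of these 15 were below the median of little changed transcripts of their level and 2 below the lower quartile. The lists were read each within its own library, and the difference between them was not tested. A low share was not always that of a transcript without a partner. The transcript with rank 8 among the largest rises was in 19.5% of RA cells, and it or a partner in 97.9%. Their Pearson correlation of log counts across RA cells was -0.71. The transcript with rank 11, in 16.1%, stood next to the most abundant RA transcript in the numbering.

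Over the whole list, 804 of the 2342 gained transcripts were seen in between 10% and 90% of the thinned RA cells, which is 34.3%, near the 35.8% of all compared transcripts. A share of cells mostly follows level at this depth. Another 1529 gained transcripts were in under 10% of the cells, 65.3% against 63.2% of all compared transcripts. In over 90% of the cells were 9 of them, 0.384% against 1.01% of all compared. Without thinning, 912 were in between 10% and 90%, which is 38.9% against 40.9% of all compared transcripts. The median gained transcript was in 6.21% of thinned RA cells and 1.18% of ESCs. In ESCs 1 gained transcript was in over 90% of the thinned cells, 0.0427% against 1.72% of all compared. Of the lost transcripts, 421 of 986 were seen in 10% to 90% of thinned ESCs, which is 42.7% against 39.3% of all compared transcripts. In over 90% of thinned ESCs were 26 of the lost, 2.64% against 1.72% of all compared.

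Within bands of level, the median gained transcript was in fewer RA cells than the median little changed one. Between 0.3 and 1 UMI per thinned cell, the median share was 18.2% of cells for 483 gained and 20.9% for 1992 little changed transcripts. Between 3 and 10 UMIs it was 70.8% for 62 gained and 80.9% for 211 little changed ones. Above 10 UMIs it was 84.1% for 13 gained and 99.8% for 100 little changed ones. The median Fano factors in these last bands were 6.02 against 3.87 and 12.7 against 4.44. The quartiles overlapped between 0.3 and 1 UMI, with 13.8% to 23.3% of cells against 16.1% to 27.1%, and between 3 and 10 UMIs, with 59.6% to 80.9% against 71.1% to 89.0%, so the shift there is one of medians. The few lost transcripts at these levels also had lower medians in RA cells, at 17.1% for 42 of them between 0.3 and 1 UMI and at 74.3%, with a median Fano factor of 9.49, for 6 between 3 and 10 UMIs. As the same cells gave both the list and the shares, these are descriptions of the libraries.

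In ESCs the medians of the lost transcripts were lower in 4 of 5 bands of level, with overlapping quartiles. Between 0.1 and 0.3 UMI the median share was 10.1% of cells (quartiles 8.00% and 13.2%) for 284 lost and 11.5% (8.94% and 15.1%) for 2726 little changed transcripts. Between 3 and 10 UMIs the median share was 83.5% of cells (quartiles 69.4% and 93.4%) for 37 lost and 91.1% (83.8% and 96.5%) for 224 little changed transcripts. Above 10 UMIs it was 98.4% (88.1% and 100%) for 19 lost and 100% (99.8% and 100%) for 110 little changed ones, with median Fano factors of 11.5 and 2.79. Between 1 and 3 UMIs it was 56.2% for 78 lost and 60.9% for 680 little changed ones, and between 0.3 and 1 UMI the shares hardly differed, at 28.6% and 28.5%. Between 0.1 and 0.3 UMI the median level was also lower for the lost, at 0.155 against 0.167 UMI, and in the other bands it was higher.

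**Figure D2:**
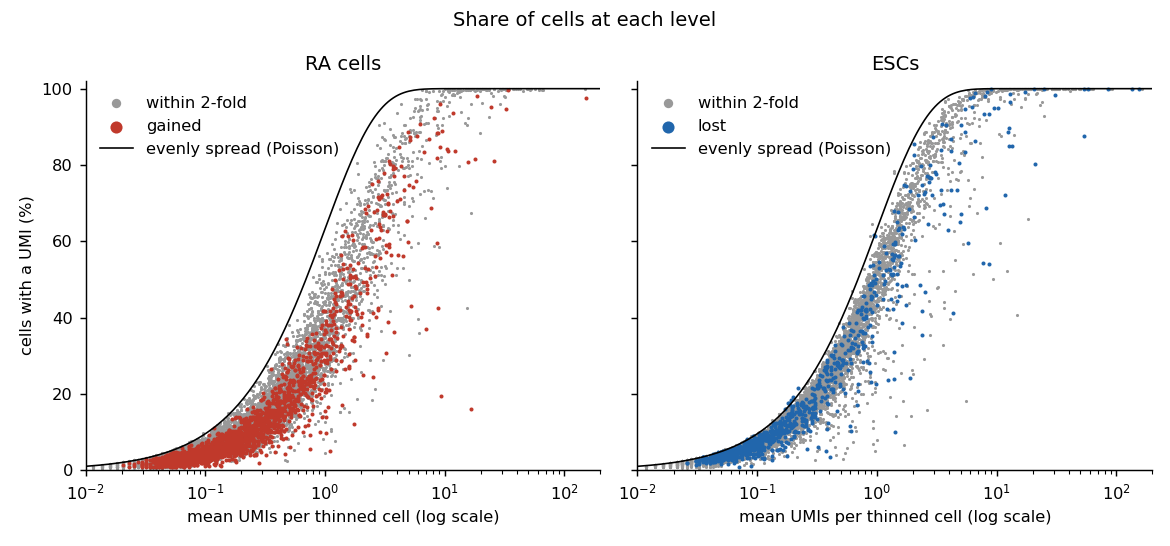
Share of cells with a UMI (vertical axis, percent) against mean UMIs per cell after thinning to 10000 UMIs (log scale), for gained transcripts in RA cells (left) and lost transcripts in ESCs (right), each with the transcripts within 2-fold in grey. The line shows evenly scattered counts. The grey points lie further below it in RA cells than in ESCs, and the gained transcripts overlap the grey ones with a lower median share in the same band of level.

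Of the 235 gained transcripts with at least 1 UMI per thinned RA cell, 122 (51.9%) were in under 50% of the cells, against 403 of 994 little changed transcripts (40.5%). In ESCs the numbers were 23 of 134 lost transcripts (17.2%) and 115 of 1014 little changed ones (11.3%). The Fano factor was at least 2 in 8793 of 9906 transcripts with at least 0.1 UMI per thinned RA cell (88.8%) and in 2968 of 8698 in ESCs (34.1%), which restates the difference between the libraries given above. Read against the little changed transcripts of the same level in the same library, the states were close, with 577 transcripts in RA cells and 442 in ESCs at or above 2 times their median (5.82% and 5.08%). Of the gained transcripts 203 of 1537 (13.2%) passed this limit in RA cells and 13 of 283 (4.59%) in ESCs. Of the lost ones 17 of 161 (10.6%) passed it in RA cells and 83 of 588 (14.1%) in ESCs. Among little changed transcripts 3.86% passed it in each state, so the gained ones in ESCs lay near that share. This limit was chosen after the data were seen.

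The most abundant transcript of RA cells was itself gained. It rose from 365 CPM to 15182 CPM, 41.5-fold, and made up 10.8% of all gained UMIs. Over thinned RA cells it ranged from 0 to 523 UMIs with a median of 137 and quartiles of 57 and 219.5, and over ESCs from 0 to 42 with a median of 3. It was seen in 97.5% of RA cells and in 87.1% of ESCs. No cells known to lack it were at hand, so the share of ESCs that free RNA alone would give was not measured. In 28 RA cells (6.44%) its count was at or under the 95th percentile of the ESCs, which was 9 UMIs.

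The gained transcript next in abundance rose 8.91-fold, to a median of 31 UMIs per thinned RA cell from 3 per ESC. The one after it rose 170-fold, had a median of 30 UMIs per RA cell and was at 0 in 386 of 425 ESCs. For the 5 most abundant gained transcripts, between 6.44% and 23.9% of the RA cells had counts at or under the 95th percentile of the ESCs. All 5 thus had counts above that percentile in most RA cells.

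The most abundant transcript of ESCs was lost. It had 16500 CPM in ESCs and 3531 CPM in RA cells, a 4.67-fold fall, and was still in 99.1% of thinned RA cells. Its count per thinned ESC ran from 31 to 520 with a median of 143, and per RA cell from 0 to 204 with a median of 31. The next 3 lost transcripts in order of ESC level fell 6.51-fold, 7.20-fold and 6.41-fold. None of these 4 was at 0 in any ESC, and in RA cells they were at 0 in 4 to 32 of 435 cells. The fifth fell 7.40-fold and was at 0 in 53 of 425 ESCs and in 183 RA cells.

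Over the 425 ESCs the log counts of the first 4 varied together, with Pearson correlations of 0.82 to 0.86 across cells of 1 library, and the fifth followed them less closely, at 0.34 to 0.45. Over all deposited ESC barcodes, between 98.7% and 99.3% of the values above 0 of these 5 transcripts were not whole, so nearly every value was an estimate that divided reads between transcripts. For the 5 most abundant gained transcripts the highest such share over RA barcodes was 14.2%. The part of this division in the correlations was not tested. The median over all pairs of the 134 lost transcripts with at least 1 UMI per cell was 0.0038 in ESCs. Among the 5 most abundant gained transcripts the correlations over RA cells ran from -0.18 to 0.60.

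**Figure D3:**
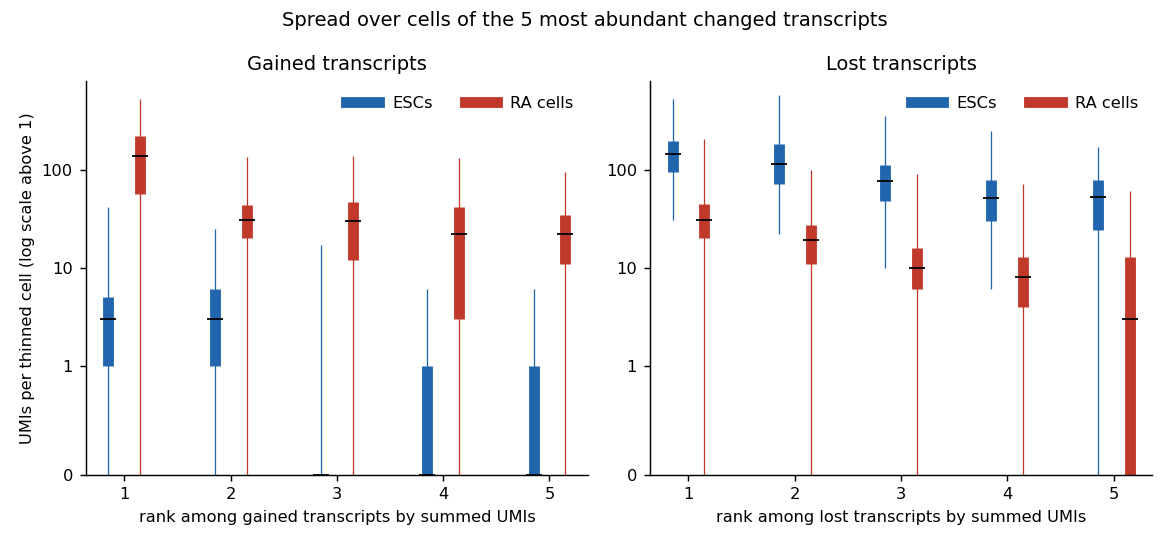
UMIs per thinned cell of the 5 most abundant gained (left) and lost (right) transcripts, in order of summed UMIs. Thin lines run from the lowest to the highest cell, thick bars over the quartiles and black ticks mark medians, with ESCs in blue and RA cells in red (log scale above 1). The first gained transcript has medians of 3 and 137, and the first lost transcript of 143 and 31.

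The UMIs were less concentrated in RA cells. The 100 most abundant transcripts of each state held 33.7% of the UMIs of ESCs and 28.5% of those of RA cells, and the top 10 held 9.83% and 7.65%. In ESCs 323 transcripts were enough to reach 50% of the UMIs, and in RA cells 486. The lists of 100 had 74 transcripts in common, 74% of each. Of the ESC list, 13 were lost in RA cells, and these 13 held 7.24% of the UMIs of ESCs and 1.18% of those of RA cells. Of the RA list, 9 were gained, with 3.38% of the UMIs of RA cells and 0.147% of those of ESCs. Of the 10 most abundant transcripts of ESCs 4 were lost, and of those of RA cells 1 was gained.

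**Figure D4:**
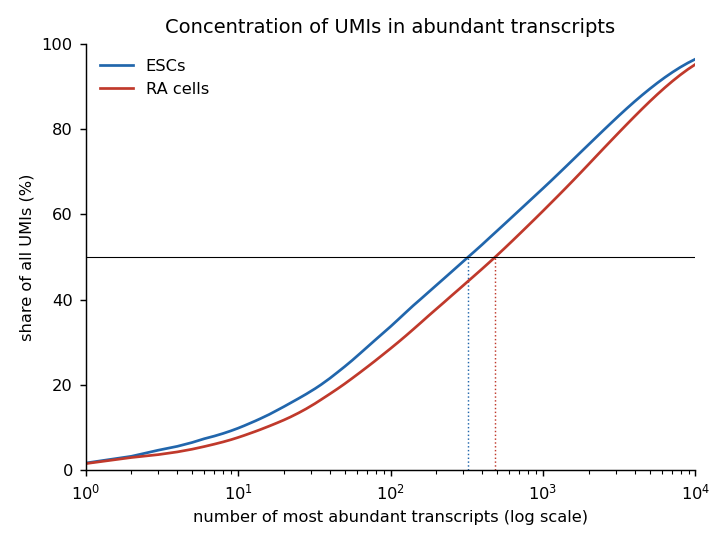
Share of all UMIs of the kept cells (vertical axis, percent) held by the most abundant transcripts, against their number on a log scale, for ESCs in blue and RA cells in red. The dotted lines mark the 323 and 486 transcripts that reach 50%.

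Cell by cell the order was the same for the 100 most abundant transcripts of each cell, with medians of 35.5% in ESCs and 32.5% in RA cells, but the central 90% of cells overlapped, from 32.8% to 40.6% and from 29.0% to 37.6%. The number of different transcripts per thinned cell was lower in RA cells, with a median of 2760 in ESCs and 2320 in RA cells, and a central 90% of 2504 to 3045 and 2036 to 2694. The paper reports the other order, with more genes identified in differentiated cells than in ESCs. It counted genes, not transcripts, in its own set of cells, and the reason for the difference was not tested. Over all kept cells, 29802 transcripts had a UMI in ESCs and 29704 in RA cells. Clumped counts, as in the RA library, give fewer transcripts per cell at a given depth, and the part of the cells in this difference cannot be told apart from that of the library.

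Each cell could be placed by the share of its UMIs in gained and lost transcripts. The lists were drawn from these same cells, so the separation of the states is built in, and only the spread within each state is informative. The share in gained transcripts ran from 6.65% to 22.5% over RA cells, with a median of 14.2%, and from 0.650% to 3.52% over ESCs, with a median of 1.34%, and the states did not overlap. The share in lost transcripts ran from 5.95% to 29.6% over ESCs, with a median of 11.9%, and from 0.730% to 8.01% over RA cells, with a median of 1.81%. Here the states overlapped, with 2 RA cells at or above the lowest ESC and 26 ESCs at or below the highest RA cell. The RA cell with the highest share of lost transcripts had 13.8% of its UMIs in gained ones.

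Every kept RA cell had at least 182 different gained transcripts among its 10000 UMIs, with a median of 296 of the 2342 and a highest value of 407. The median ESC had 79. At this depth each RA cell thus showed a small part of the list. The 10 most abundant lost transcripts took between 1.59% and 20.0% of an ESC's UMIs with a median of 5.87%, and the other 976 between 3.66% and 10.5% with a median of 6.12%. In the median ESC both parts were thus of similar size, and the 10 varied more from cell to cell. In RA cells the 10 most abundant gained transcripts took between 0.330% and 8.33% with a median of 3.46%, and the other 2332 between 6.06% and 16.6% with a median of 10.6%.

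**Figure D5:**
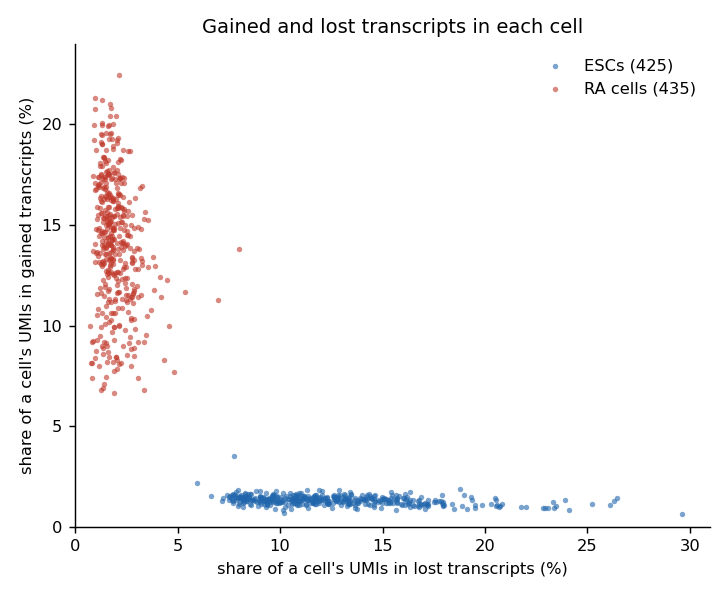
Each point is a kept cell, with the share of its UMIs in lost transcripts on the horizontal axis and in gained transcripts on the vertical axis (percent, cells thinned to 10000 UMIs). The 435 RA cells (red) lie between 6.65% and 22.5% for gained transcripts and the 425 ESCs (blue) at or below 3.52%.

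Counts were made per transcript, not per gene, and some pairs of transcripts replaced each other from cell to cell. Among the 3225 transcripts with at least 0.5 UMI per thinned RA cell, 47 pairs had a Pearson correlation of log counts below -0.5 across the 435 RA cells, and in ESCs 75 pairs among 2939 transcripts did so across 425 cells. The lowest correlations were -0.90 and -0.92. In 35 of the 47 pairs and 61 of the 75 the identifiers lay within 5 places of each other in the numbering, which held for 0.0287% and 0.0323% of all pairs. In 1 such pair of RA cells, a transcript gained 43.5-fold was in 157 cells and its partner, which was not called, in 310, with 33 cells in common and 434 of 435 cells holding one or the other. The sum of both was 1.31-fold higher in RA cells.

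Of the 452 gained transcripts at this level in RA cells, 14 (3.10%) were in a pair below -0.5 and 70 (15.5%) in a pair below -0.3, against 2.88% and 9.18% of all 3225 transcripts. Of the 229 lost transcripts at this level in ESCs, 16 (6.99%) and 68 (29.7%) were, against 5.07% and 14.7% of all 2939. Of the pairs below -0.3 fewer lay within 5 places, 96 of 310 in RA cells and 134 of 724 in ESCs, so most of these partners were not neighbours in the numbering. A sum with a partner that differed less also lowers a fold whatever the pair is. When summed with their partner, 7 of the 14 gained transcripts were no longer 4-fold higher, and neither were 27 of the 70. Of the lost transcripts 4 of the 16 were no longer 4-fold lower when summed, and neither were 38 of the 68. The median share of RA cells of the 14 was 43.9% alone and 97.8% for the pair. The most uneven gained transcript, with a Fano factor of 158, was in 70 RA cells (16.1%), where it had a median of 83 UMIs. Its identifier stood next to that of the most abundant RA transcript, which had a median of 121.5 UMIs in those 70 cells and 138 in the rest, with a correlation of -0.38. The sum of both had medians of 230.5 and 138 UMIs, higher in the cells that held the uneven transcript. How reads were divided between such transcripts was not tested, and a transcript seen in part of the cells is therefore not always a gene seen in part of the cells.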

How the data were processed

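Single-cell RNA-seq (InDrop) was deposited for 1 sample of ESCs and 1 of cells treated with retinoic acid, and groups came from the sample labels. The authors deposited expected counts per transcript and barcode, made with RSEM per the labels' notes, for 55116 transcripts. The notes name the mm9 build for both samples and Bowtie2 for the ESC sample only. Versions and the collapsing of UMIs were not given in the sources used here. Of the values above 0, 27.9% in ESCs and 27.8% in RA cells were not whole. The expected counts were rounded to whole numbers, and cells with more than 10000 UMIs were kept, as in the paper's methods.

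Summed counts were scaled by the state's total. A transcript needed 30 UMIs over both states, and sums under 3 UMIs were set to 3. Shares of cells and Fano factors used cells thinned without replacement to 10000 UMIs. No statistical test was made, with 1 sample per state. The scripts that make the calls were checked on simulated counts. The named transcripts were the 2 that rose most and the 2 that fell most, by fold with sums under 3 set to 3, where the higher state had 500 UMIs or more. The comparison, lists and limits were chosen with earlier results of these data known. No marker list and no gene list of the paper was used, since the deposited files do not pair identifiers with names, and the ChIP files were left aside. The alternatives were other cell filters, folds, minimums, scales, thinning depths and limits. The scripts ran under pandas 2.3.3, scipy 1.17.1, numpy 2.4.6 and Python 3.11.15.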

Additional observations from a re-analysis of the deposited data

How the results depend on the processing

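Of 84 values recomputed under another setting, 53 stayed within 1.5 times the reported count or within the counting interval of the reported share, and 31 did not. With a fold of 2, 5083 transcripts were gained and 2809 lost, and with a fold of 8, 1201 and 470. With a minimum of 10 summed UMIs 1592 were lost, and with 100 UMIs 1254 were gained and 476 lost. With 0 UMIs in the other state, 203 were gained outright and 118 lost, and with at least 100 UMIs 124 and 47. Between 5% and 95% of RA cells held 1376 gained transcripts, and between 20% and 80% held 387. The shares of all compared transcripts within these limits are not given here. Uneven transcripts numbered 5429 in RA cells and 711 in ESCs with a Fano factor of 3, 4030 and 618 after thinning to 5000 UMIs, and 577 and 442 with 2 times the median of little changed transcripts. The fewer calls under stricter limits follow from the limits.

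The share of the top 100 transcripts was 33.4% in ESCs and 28.8% in RA cells over all deposited cells, 33.5% and 28.5% after thinning, 32.7% and 27.5% without the most abundant transcript, and 33.5% in ESCs without the 5 percent of cells with most UMIs. With a fold of 8 the median share of a cell's UMIs in gained transcripts was 0.370% in ESCs and 9.17% in RA cells, and in lost transcripts 2.78% and 0.160%. Over all deposited cells the median share in lost transcripts was 10.7% in ESCs.

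Merging the 574 transcripts in pairs with a correlation below -0.3 into 186 groups left 2281 gained, 934 lost and 747 gained in part of the RA cells. Of the groups 168 were pairs, and the largest held 174 transcripts, which need not have replaced each other. The share of all merged transcripts seen in part of the RA cells is not given here. Asking for a UMI in at least 10 cells left 2176 and 977. These settings and the band median were chosen after seeing the data. All deposited cells and unrounded counts were not run for Fano factors and transcripts per cell, which need cells thinned from whole counts. No paired analysis was possible because each state had 1 sample and no test was made.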

Other observations

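The primers listed in the methods carry a UMI of 5 bases, for which 1024 sequences exist. In ESCs 13 values of 1 transcript in 1 cell were above 1024, in 9 cells and 2 transcripts, with a highest value of 1565, and in RA cells 2 values were, with a highest value of 1115. Whether every value counts a molecule once was not tested.

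By number of transcripts, values that were not whole were less frequent among gained than little changed transcripts. Among transcripts with at least 30 UMIs in RA cells, more than 50% of a transcript's values above 0 were not whole for 252 of 2238 gained transcripts (11.3%) and 1870 of 7693 little changed ones (24.3%). In ESCs this held for 185 of 911 lost transcripts (20.3%) and 1939 of 7576 little changed ones (25.6%).

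A few gained transcripts rested on few cells. Of 2238 gained transcripts with at least 30 UMIs in RA cells, 122 were seen in under 10 cells and 7 had more than 50% of their UMIs in 1 cell. Of 911 lost transcripts with at least 30 UMIs in ESCs, 5 were in under 10 cells and none had more than 50% of its UMIs in 1 cell. Among little changed transcripts with at least 30 UMIs, 82 of 7693 in RA cells and 14 of 7576 in ESCs were in under 10 cells.

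Over the 435 RA cells, the share of UMIs in gained and in lost transcripts had a Spearman correlation of -0.22, and over the 425 ESCs of -0.33. Both shares are parts of the same 10000 UMIs of a cell. The share in lost transcripts and the cell's UMI total before thinning had a Spearman correlation of 0.27 over ESCs and 0.16 over RA cells.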
